A study of Mus musculus with 9 samples.

Results

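Il33 and its relatives of the interleukin 1 family were followed by RNA sequencing in organoids of mouse esophageal epithelium, small self-organising bodies grown from the lining cells of the gullet. The 9 libraries made 3 groups of 3, all collected on day 7: organoids labelled PCN (knockout of Trp53, Cdkn2a and Notch1), organoids labelled PN (knockout of Trp53 and Notch1) and unedited wild-type (WT) organoids, with no treatment in any group. The sources used here give neither the kind of edit nor the number of mice, clones or cultures behind a group, so the spread between libraries may be technical. The authors deposited 3 tables, 1 per pair of groups, and each holds only the genes with an adjusted p under 0.05 in that pair. The family was taken from the union of the tables by gene name: Il33, Il1a, Il1b, Il1rn, Il18, Il18bp, Il1r1, Il1r2, Il1rap, Il1rl1, Il1rl2 and every name starting with Il36 or Il1f.

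Of 16 genes with such names in the mouse annotation GENCODE M21, 10 were among the 8742 genes of the tables: Il33, Il1f9, Il1f8, Il1a, Il1rn, Il1r2, Il18bp, Il1rl2, Il1r1 and Il1rap. Il18, Il1b, Il1f10, Il1f5, Il1f6 and Il1rl1, which encodes the IL-33 receptor ST2, stood in no table, and their levels were not analysed here. Counts in all 9 libraries were given for 8 genes. Il1r1 had counts only in the PN and WT libraries, and Il1rap only in the PCN and PN libraries. The members were thus chosen by the authors' adjusted p in these same libraries, and their levels and fold changes are given as a description without a test.

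Interleukin 1 family cytokines are alarm signals of barrier tissues. IL-1α and IL-33 are held inside epithelial cells, IL-33 bound to chromatin in the nucleus, and are released when cells are damaged, while the IL-36 cytokines act mainly in stratified epithelia. The IL-1, IL-33 and IL-36 agonists each bind their own receptor chain, which then pairs with the shared accessory protein encoded by Il1rap. The pair signals through MyD88 and IRAK kinases to NF-κB and MAP kinases. Antagonists, decoy receptors and binding proteins limit the signal. In the esophagus IL-33 is known for its part in allergic inflammation.

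Recovered library totals were between 17422590 and 20198041 counts for PCN, between 16857744 and 18912526 for PN and between 14695420 and 15093994 for WT. Trp53 was at 2.53 to 3.96 CPM (counts scaled to the library total) in PCN, 2.27 to 3.24 CPM in PN and 118 to 121 CPM in WT. Notch1 was at 66.5 to 76.9 CPM in PCN, 140 to 154 CPM in PN and 213 to 277 CPM in WT. Cdkn2a was at 62.4 to 70.2 CPM in PCN, 21.5 to 22.7 CPM in PN and 6.49 to 10.3 CPM in WT, so its RNA was highest in the organoids labelled as its knockout. Because the edits are not described, counts over the whole gene do not check them. All 16 esophageal epithelial markers were in the tables. None of 11 fibroblast markers, 1 of 11 endothelial markers (Esam) and 1 of 15 leukocyte markers (Cd68) were there, and the levels of the others were not analysed here.

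The start regions of 3 agonist genes are printed: Il33, Il1f9 and Il1a, which stand for the IL-33, IL-36 and IL-1 branches of the family, Il1f9 being the more abundant of the IL-36 genes in the tables. The windows run from 250 bases before to 50 bases after a RefSeq transcription start on build GRCm38.p6, read along the gene's strand. Il33 has 2 such windows, at chr19:29924863-29925162 and chr19:29945540-29945839 on the plus strand. The Il1f9 window lies at chr2:24186226-24186525 on the plus strand and the Il1a window at chr2:129309923-129310222 on the minus strand. Capitals mark matches to any of 4 motifs, searched on both strands: TGGGAA for RBPJ, the DNA-binding partner of activated Notch receptors, TGANTCA for AP-1, GGG and CC with 5 free bases between them for NF-κB, and GAAA repeated after 2 free bases for interferon elements.
Il33 upstream window: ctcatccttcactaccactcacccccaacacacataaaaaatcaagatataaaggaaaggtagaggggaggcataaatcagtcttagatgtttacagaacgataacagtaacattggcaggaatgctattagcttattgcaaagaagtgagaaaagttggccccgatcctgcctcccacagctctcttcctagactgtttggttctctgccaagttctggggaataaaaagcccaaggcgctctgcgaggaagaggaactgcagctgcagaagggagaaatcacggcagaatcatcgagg
Il33 internal window: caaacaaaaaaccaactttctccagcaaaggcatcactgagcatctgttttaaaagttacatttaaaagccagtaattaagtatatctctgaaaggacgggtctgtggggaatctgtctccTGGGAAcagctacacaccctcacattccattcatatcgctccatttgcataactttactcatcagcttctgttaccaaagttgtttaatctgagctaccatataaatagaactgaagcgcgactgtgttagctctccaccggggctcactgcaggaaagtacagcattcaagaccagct
Il1f9 window: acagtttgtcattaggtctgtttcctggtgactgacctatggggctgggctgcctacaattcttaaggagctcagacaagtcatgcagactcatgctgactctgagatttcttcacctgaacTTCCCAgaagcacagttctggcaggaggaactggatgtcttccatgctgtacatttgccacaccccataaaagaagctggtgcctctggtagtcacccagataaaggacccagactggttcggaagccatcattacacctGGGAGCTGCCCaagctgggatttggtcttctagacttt
Il1a window: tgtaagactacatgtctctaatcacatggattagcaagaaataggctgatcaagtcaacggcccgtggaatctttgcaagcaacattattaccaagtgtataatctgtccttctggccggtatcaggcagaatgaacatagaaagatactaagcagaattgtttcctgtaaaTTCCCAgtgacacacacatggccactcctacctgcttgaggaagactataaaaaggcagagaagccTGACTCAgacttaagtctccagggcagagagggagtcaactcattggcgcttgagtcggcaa

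The upstream Il33 window held none of the 4 motifs. Its internal window held 1 RBPJ match, starting at position -129 relative to the first transcribed base, which is position 0. The Il1f9 window held an RBPJ match at -128 and 2 overlapping NF-κB matches at 12 and 13, printed as 1 run of capitals. The Il1a window held an RBPJ match at -78 and an AP-1 match at -12. Over the 14 windows of the 10 genes, RBPJ letters stood in 8, AP-1 letters in 3, NF-κB letters in 6 and the interferon element in 1. Among the Il1rn windows 2 overlap and count the same RBPJ and NF-κB letters each time. By gene, 6 of 10 held RBPJ letters, 3 AP-1 letters, 4 NF-κB letters and 1 the interferon element. Among all 32851 windows of the RefSeq table the shares of windows with a match were 25.6% for RBPJ, 7.81% for AP-1, 50.8% for NF-κB and 3.44% for the interferon element. A match gives the letters only and is no measurement of binding.

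Il33 was the member with the largest difference in either comparison with WT. The gene (ENSMUSG00000024810) spans chr19:29925114-29960718 on the plus strand of GRCm38, with 5 annotated coding transcripts of 2 to 8 exons that start at 5 different sites. In FPKM, which scales counts by gene length and library total, Il33 stood at 2.13, 2.11 and 1.67 in PCN, at 3.78, 4.90 and 5.18 in PN and at 163, 175 and 201 in WT. The raw counts behind these values were 124, 106 and 90 in PCN, 184, 240 and 283 in PN and 7061, 7434 and 8766 in WT. No library of any group reached into the range of another group, and all 3 WT libraries were far above the rest.

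The fitted log2 fold change of Il33 was -5.27 ± 0.12 (SE) in PN against WT, or 38.6 times lower. In PCN against WT it was -6.51 ± 0.12 (SE), or 90.9 times lower, and in PCN against PN -1.23 ± 0.14 (SE), or 2.35 times lower. These comparisons share libraries, so their values are not independent of each other. The authors' deposited table lists an adjusted p of 0 for Il33 in both comparisons with WT and of 8.1e-10 in PCN against PN. The members were chosen by such values, so they are no further test of Il33. Ordered by the fold change of the authors' deposited table among protein-coding genes of at least 5 CPM in the higher group, Il33 was 5th from the bottom of 5518 genes in PCN against WT and 27th of 5474 in PN against WT. It was 86th of 3146 in PCN against PN. In bulk RNA, fewer cells of a type and less RNA per cell cannot be told apart.

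Il1f9 encodes IL-36γ, an agonist made by keratinocytes and other stratified epithelial cells. It stood at 26.9, 26.0 and 25.4 FPKM in PCN, 12.0, 11.5 and 11.5 FPKM in PN and 47.6, 50.3 and 55.1 FPKM in WT. The 3 groups did not overlap, and PCN lay between PN and WT, unlike for Il33. Its log2 fold change was -2.12 ± 0.09 in PN against WT, -0.96 ± 0.08 in PCN against WT and 1.16 ± 0.08 in PCN against PN (SE). Il1f9 lies at chr2:24186476-24193568, next to Il1f8 at chr2:24153161-24160519.

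Il1f8 encodes IL-36β, a further agonist of the same receptor, and was close to the limit of detection in edited organoids. It had 15, 8 and 11 counts in PCN, 8, 0 and 5 counts in PN and 38, 35 and 23 counts in WT, which corresponds to 0.491 ± 0.12 FPKM in PCN, 0.202 ± 0.20 FPKM in PN and 1.76 ± 0.45 FPKM in WT (SD, n = 3 each). WT was above the other groups without overlap, whereas 1 PN library reached into the PCN range. On the log2 scale the fitted difference was -3.07 ± 0.56 in PN against WT and -1.82 ± 0.37 in PCN against WT (SE). Without PN replicate 1, which held 8 of the 13 PN counts, the PN value was -3.87. No fold change is given for PCN against PN, where the counts were too low for the fit.

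Il1a encodes IL-1α, which signals through IL1R1 when released from damaged cells. The gene lies at chr2:129299610-129309972 on the minus strand. Its levels were 0.853, 0.756 and 0.544 FPKM in PCN, 0.120, 0.358 and 0.241 FPKM in PN and 2.40, 3.86 and 5.0 FPKM in WT. The groups did not overlap, and the WT libraries differed from each other by more than those of any other group on this scale. Summed over each group, these levels rest on 80 counts in PCN, 25 in PN and 332 in WT. The fit gave a log2 fold change of -3.94 ± 0.38 in PN against WT, -2.37 ± 0.30 in PCN against WT and 1.57 ± 0.40 in PCN against PN (SE).

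Il1rn encodes the IL-1 receptor antagonist, which occupies IL1R1 without signalling, and in PN against WT it differed less than any agonist gene. The gene lies at chr2:24336853-24351494. It stood at 5.53, 5.53 and 5.37 FPKM in PCN, 6.55, 6.49 and 6.52 FPKM in PN and 10.5, 11.5 and 11.6 FPKM in WT. The libraries within each group lay close together, with PCN below PN and PN below WT without overlap. Log2 fold changes were -0.77 ± 0.08 in PN against WT, -1.03 ± 0.08 in PCN against WT and -0.25 ± 0.07 in PCN against PN (SE). Il33 and Il1rn were the members lower in PCN than in PN.

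The ratio of Il1rn to Il1a in FPKM was 7.89 ± 1.8 in PCN, 33.2 ± 19 in PN and 3.23 ± 1.1 in WT (SD, n = 3 each). The wide PN ratio, 18.1 to 54.5, comes with only 4 to 12 Il1a counts per PN library. The lowest PCN ratio was 6.48 and the highest WT ratio 4.39, so that the 3 groups did not overlap.

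Il1r2 encodes a decoy receptor that binds IL-1 and cannot signal. It stood at 1.56, 1.68 and 1.46 FPKM in PCN, 0.871, 0.926 and 0.776 FPKM in PN and 2.73, 2.64 and 1.70 FPKM in WT. The groups did not overlap, although the lowest WT library was just above the highest PCN library. The log2 fold change was -1.45 ± 0.27 in PN against WT and 0.87 ± 0.24 in PCN against PN (SE). PCN against PN was the listed member value nearest the threshold, with an adjusted p of 0.039 in the authors' deposited table. Il1r2 is not in the authors' table for PCN against WT, and a fit over all genes with counts in 9 libraries gave -0.58 ± 0.24 there.

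Il18bp encodes the soluble protein that neutralises IL-18, and it was the member with higher RNA in edited organoids than in WT. It stood at 0.834, 0.285 and 0.603 FPKM in PCN, 0.392, 0.448 and 0.507 FPKM in PN and 0.110, 0.112 and 0.131 FPKM in WT. Every edited library was above every WT library, while PCN and PN overlapped. The values rest on 51, 15 and 34 counts in PCN, 20, 23 and 29 counts in PN and 5, 5 and 6 counts in WT. The log2 fold change was 2.28 ± 0.50 in PCN against WT and 1.92 ± 0.41 in PN against WT (SE). In PCN against PN, where Il18bp is not listed, it was 0.37 ± 0.34 and ranged between -0.01 and 0.68 when each library was left out in turn. The gene lies at chr7:102014885-102018690 on the minus strand. Il18 itself was in no table.

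Il1rl2 encodes the receptor chain of the IL-36 cytokines. It stood at 2.18, 2.49 and 2.00 FPKM in PCN, 0.792, 0.994 and 1.11 FPKM in PN and 2.85, 3.08 and 3.31 FPKM in WT. As for Il1f9, the groups did not overlap and PCN lay between PN and WT. Fitted log2 fold changes were -1.66 ± 0.14 in PN against WT, -0.47 ± 0.12 in PCN against WT and 1.20 ± 0.13 in PCN against PN (SE). The ratio of Il1f9 to Il1rl2 in FPKM was 11.8 ± 1.2 in PCN, 12.4 ± 2.4 in PN and 16.6 ± 0.23 in WT (SD, n = 3 each), and the ranges of PCN and PN overlapped.

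Il1r1 encodes the signalling receptor of IL-1. It stood at 0.382, 0.481 and 0.474 FPKM in PN and at 0.756, 0.823 and 1.44 FPKM in WT, a log2 fold change of -1.16 ± 0.27 (SE). The groups did not overlap, and WT replicate 3, at 138 counts against 72 and 77 in the other WT libraries, was well above the rest. Without that library the log2 fold change was -0.81.

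Il1rap encodes the accessory chain shared by the IL-1, IL-33 and IL-36 receptors. It stood at 3.09, 3.28 and 2.90 FPKM in PCN and at 2.10, 2.15 and 2.16 FPKM in PN, without overlap. The log2 fold change in PCN against PN was 0.53 ± 0.08 (SE). The gene lies at chr16:26581704-26730117, and its level in WT is not given in the tables.

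**Figure D1:**
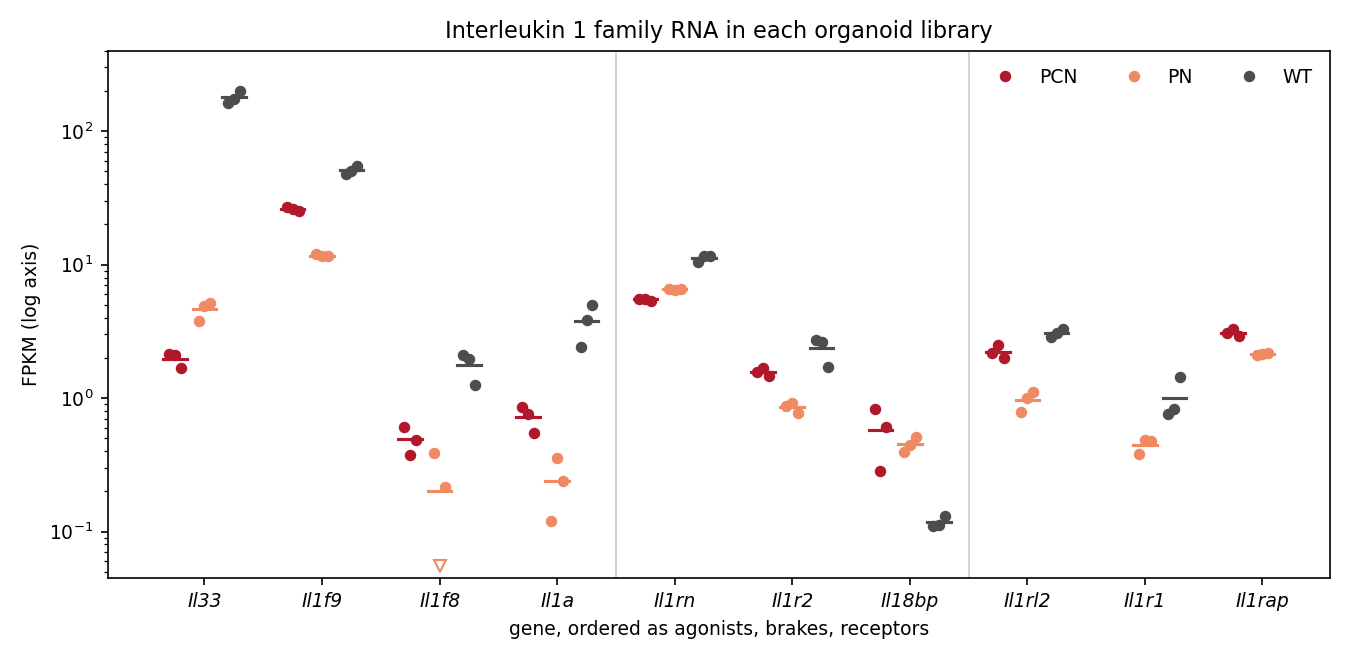
FPKM on a log axis for each of the 10 genes, with 1 point per library, a bar at the group mean and the groups PCN, PN and WT in that order within each gene. Il33 in WT, at 163 to 201 FPKM, stands far above every other value. The open triangle marks the PN library with 0 Il1f8 counts, drawn at the foot of the axis, and a missing group has no value in the tables.

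Il1r2, Il1r1 and Il1rl2 lie side by side on chromosome 1 (chr1:40074079-40125231, chr1:40225080-40317257 and chr1:40324610-40367562), and all were lower in PN than in WT. Map4k4, the neighbour before Il1r2, was higher in PCN, with log2 fold changes of 0.22 against WT and 0.19 against PN. Il33 lies between Ranbp6 and Trpd52l3, with Uhrf2 beyond. Ranbp6 fell by 0.37 in PCN against PN on the log2 scale, and Uhrf2 fell by 0.26 in PCN against WT, a call lost with TMM scaling, with an adjusted p of 0.066 (edgeR), and also lost without PCN replicate 1 or 3 or WT replicate 2. Of 15 genes around Il33 on chromosome 19, 6 were in the tables. Insl6 and Jak2 fell in both comparisons with WT, by at most 1.29 on the log2 scale, Rcl1 rose by 0.48 in PN and 0.47 in PCN, and Ermp1 fell by 0.34 in PCN against WT and by 0.40 in PCN against PN.

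Across the family, the authors' tables list 9 members in PN against WT, of which Il18bp was higher and 8 were lower. In that comparison the authors called 38.1% of 17165 genes, 18.2% as higher and 19.9% as lower. In PCN against WT they list 7 members, Il18bp higher and 6 lower, and called 38.6% of 17300 genes, 18.4% as higher and 20.2% as lower. In PCN against PN they list 7 members, 5 higher and 2 lower, and called 24.5% of 14758 genes, 12.6% as higher and 11.8% as lower. Since the members were chosen by these calls, nothing is read from the counts. The median log2 fold change of the listed members was -1.66 in PN against WT, where all listed genes in the fit had a median of -0.26. In PCN against WT these medians were -1.03 for the members and -0.28 for all listed genes, and in PCN against PN 0.87 for the members and 0.16 for all listed genes. The member medians use the authors' deposited fold changes and the others the fitted ones. For the same reason as with the counts, nothing is read from the medians.

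Libraries of the groups did not overlap in CPM for 9 of 9 members in PN against WT, for 8 of 8 in PCN against WT and for 7 of 9 in PCN against PN, where Il18bp and Il1f8 overlapped. Genes with counts in the 6 libraries all come from the authors' tables of called genes. Of these, 90.1% of 7421 did not overlap in PN against WT, 91.0% of 7396 in PCN against WT and 60.3% of 7213 in PCN against PN. Il1f9, Il1a, Il1r2 and Il1rl2 were lower in PN than in WT and higher in PCN than in PN. Il33 and Il1rn had their lowest level in PCN.

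**Figure D2:**
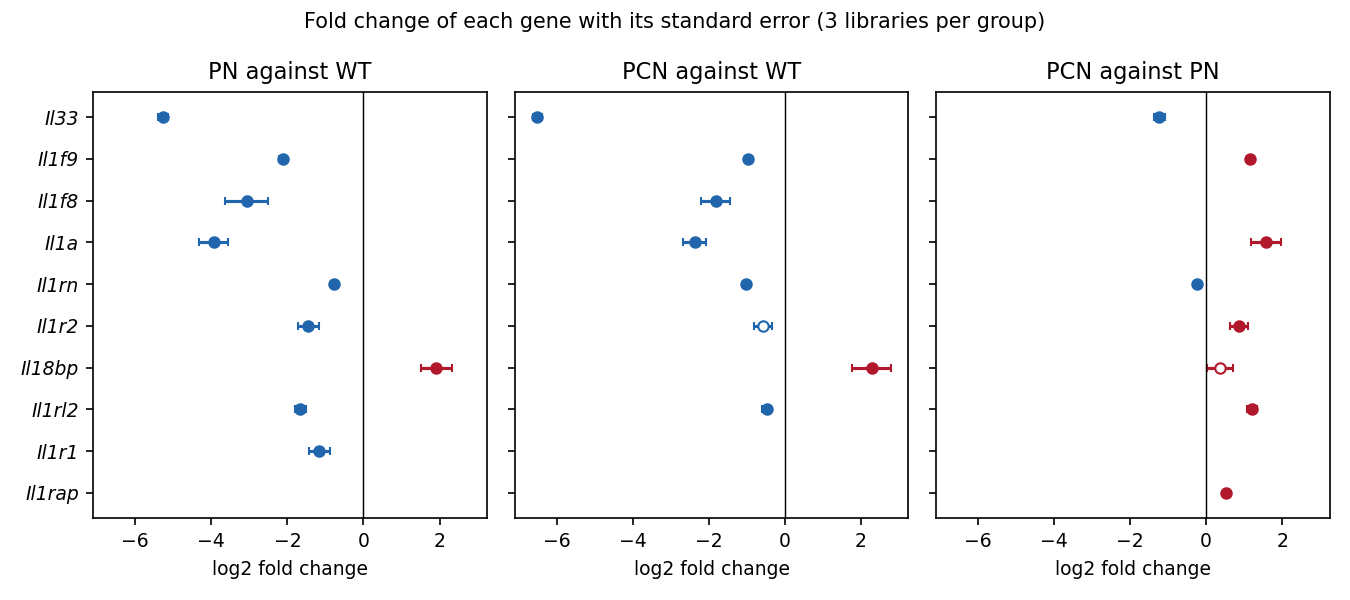
Log2 fold change of each member with its standard error, from 3 libraries per group, 1 panel per comparison. Filled points are genes listed in the authors' table of that comparison and open points come from the fit over genes with counts in all 9 libraries. Il33 is at the far left in both comparisons with WT, at -5.27 and -6.51.

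The order of the levels per gene length differed between the groups. It covers 9 members in PCN, where Il1r1 has no value, 10 in PN and 9 in WT, where Il1rap has no value. Positions therefore hold within a group only. In WT, Il33 was the highest at 180 ± 19 FPKM, followed by Il1f9 at 51.0 ± 3.8 FPKM and Il1rn at 11.2 ± 0.60 FPKM (SD, n = 3 each), and each was above the next without overlap. In PN the order began with Il1f9 at 11.7 ± 0.24 FPKM, Il1rn at 6.52 ± 0.029 FPKM and Il33 at 4.62 ± 0.74 FPKM (SD, n = 3 each), again without overlap. In PCN, Il1f9 at 26.1 ± 0.73 FPKM, Il1rn at 5.48 ± 0.088 FPKM and Il1rap at 3.09 ± 0.19 FPKM (SD, n = 3 each) came before Il1rl2, and Il33 was 5th at 1.97 ± 0.26 FPKM. Il33 there overlapped with its neighbours Il1rl2 and Il1r2. At the low end, Il1a, Il18bp and Il1f8 overlapped in PCN, as did Il1a and Il1f8 in PN, while Il18bp was the lowest member with a value in WT.

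The 4 agonist genes Il33, Il1f9, Il1f8 and Il1a summed to 29.2 ± 1.2 FPKM in PCN, 16.7 ± 0.50 FPKM in PN and 236 ± 24 FPKM in WT (SD, n = 3 each). Il33 made up 6.99%, 7.21% and 5.96% of that sum in PCN, 23.3%, 29.2% and 30.2% in PN and 75.8%, 75.8% and 76.6% in WT. The shares did not overlap between groups. The sum leaves out the agonist genes Il1b, Il18 and Il1f6, whose levels were not analysed, so these are not shares of all agonist RNA. Il1f9 made up 89.2 ± 1.1% in PCN, 69.8 ± 3.4% in PN and 21.6 ± 0.56% in WT (SD, n = 3 each). Without Il33, the remaining 3 genes summed to 27.3 ± 0.96 FPKM in PCN, 12.1 ± 0.32 FPKM in PN and 56.5 ± 4.6 FPKM in WT (SD, n = 3 each).

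**Figure D3:**
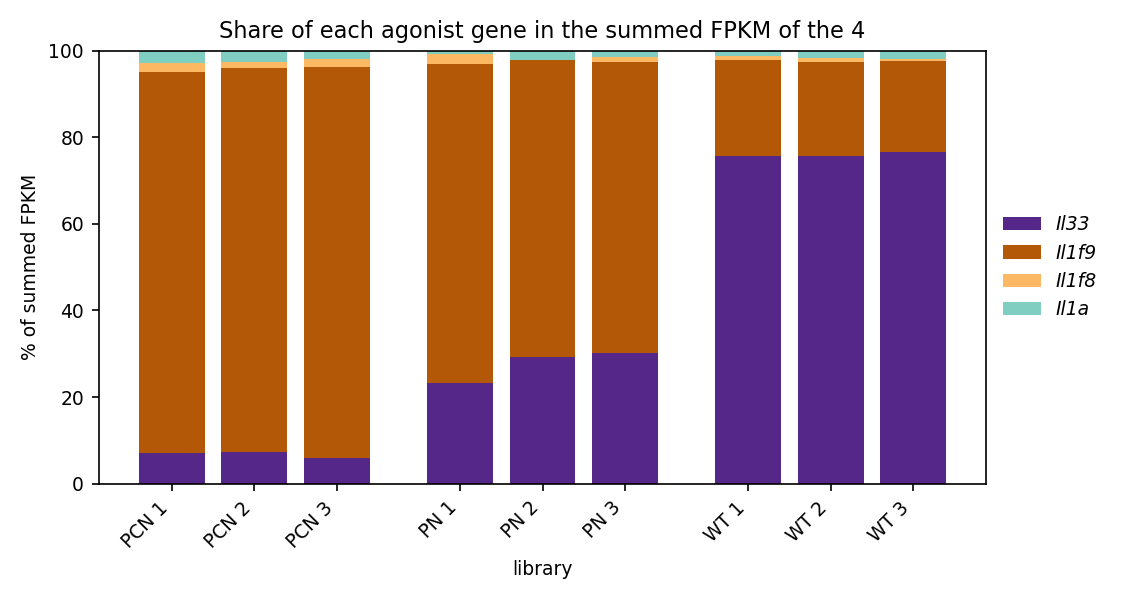
Stacked bars of the percentage that Il33, Il1f9, Il1f8 and Il1a contributed to their summed FPKM in each library, grouped as PCN, PN and WT. Il33 holds 5.96% to 7.21% of the bar in PCN, 23.3% to 30.2% in PN and 75.8% to 76.6% in WT, and Il1f9 holds most of the rest.

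The genes nearest to Il33 in pattern were sought among 6198 protein-coding genes with counts in all 9 libraries, leaving out predicted-gene symbols. The measure was the root mean square difference of log2(CPM + 0.5) after centring each gene on its own mean. Among the nearest 5 were Kbtbd11 (0.64), Trp53 (0.66), Btn1a1 (0.66), a butyrophilin of the milk fat globule, and Mgat3 (0.67), a glycosyltransferase. Trp53 is a targeted gene in both edited groups. Kbtbd11 stood at 1.53 ± 0.84 CPM in PCN, 1.21 ± 0.27 CPM in PN and 82.3 ± 4.8 CPM in WT, and Mgat3 at 4.87 ± 0.87 CPM in PCN, 11.3 ± 1.6 CPM in PN and 172 ± 11 CPM in WT (SD, n = 3 each). Ranked by Pearson correlation over the 9 libraries instead, none of these genes was among the nearest 5, so the names depend on the measure.

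**Figure D4:**
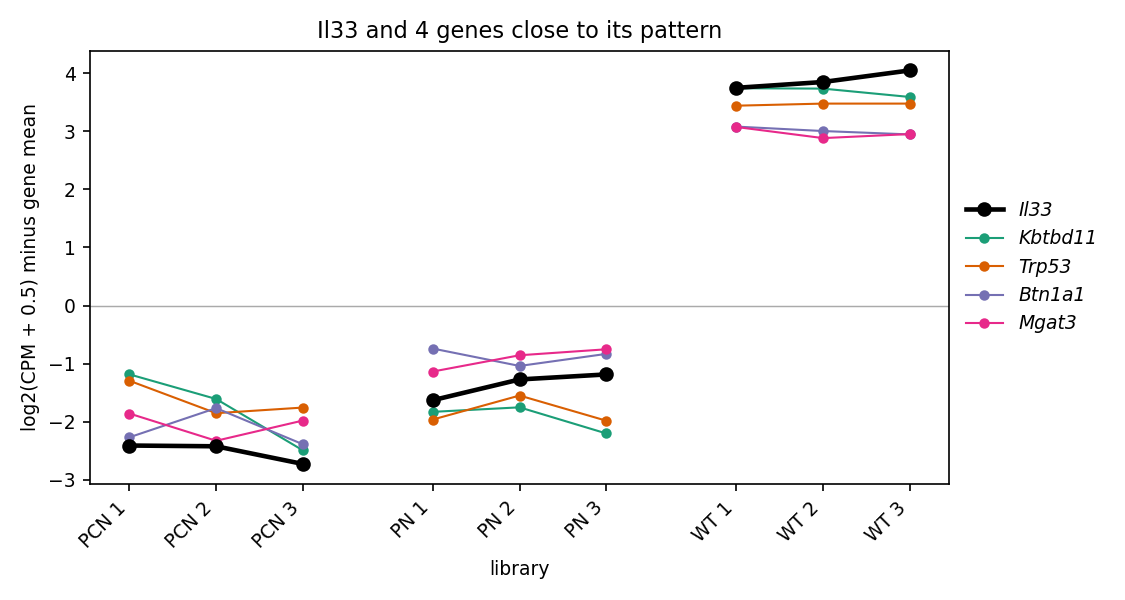
Log2(CPM + 0.5) minus the gene's own mean in each library for Il33 (black) and 4 of the genes nearest to it, with lines joining libraries of a group. All these genes sit above their mean in every WT library and below it in every edited library, and Il33, Btn1a1 and Mgat3 are lower in PCN than in PN.

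Several markers of squamous differentiation were also lower in edited organoids than in WT. Of the 16 epithelial markers, 2 rose and 8 fell among 10 in the fit of PN against WT, and 4 rose and 10 fell among 15 in PCN against WT. In PCN against PN 4 rose and 5 fell among 10. Without PCN replicate 2, 2 in place of 4 rose in PCN against WT, and without PCN replicate 1, 3 in place of 5 fell in PCN against PN. Fits here hold only genes the authors had already called, and 99.3% of all genes in the PN fit were called, 48.0% as higher and 51.2% as lower. In the PCN fit 98.6% were called, 47.3% as higher and 51.3% as lower. In the fit of PCN against PN 98.9% were called, 51.0% as higher and 47.9% as lower. Tgm3, a transglutaminase of the cell envelope, averaged 9.36 ± 0.73 CPM in PCN, 9.35 ± 0.81 CPM in PN and 283 ± 27 CPM in WT, and Sprr3, an envelope protein whose reads may be shared with its relatives, 52.3 ± 4.2 CPM in PCN, 44.8 ± 4.0 CPM in PN and 692 ± 100 CPM in WT (SD, n = 3 each). Krt13, the keratin of suprabasal esophageal cells, fell by 2.91 in PN and by 2.50 in PCN on the log2 scale. The markers that rose against WT were Krt15, a basal keratin, by 1.29 in PN and 2.46 in PCN, and Trp63, by 0.53 and 0.42. Krt14 and Dsc3 rose in PCN against WT by 0.32 and 0.31, both calls lost without PCN replicate 2. In PCN against PN Krt15 rose by 1.17 ± 0.04, Ivl fell by 0.45 and Krt13 rose by 0.41. The summed level of the 14 markers with counts in all libraries was 12129 to 12516 CPM in PCN, 10451 to 10827 CPM in PN and 34857 to 36917 CPM in WT. Krt13 and Krt4 made up most of the WT sum, averaging 15876 and 11383 CPM. They averaged 2791 and 2206 CPM in PCN and 2099 and 2501 CPM in PN. Krt5, without a WT value, and Sox2, without a PN value, are outside the sum. The part of cell composition in the Il33 difference was not tested.

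Only 1 of 11 endothelial and 1 of 15 leukocyte markers were in the tables, and 1 gene does not measure a cell type. Cd68, a lysosomal protein of macrophages, fell by 2.07 in PN against WT, by 2.73 in PCN against WT and by 0.65 in PCN against PN on the log2 scale and averaged 16.1 ± 0.97 CPM in PCN, 25.2 ± 1.6 CPM in PN and 107 ± 13 CPM in WT (SD, n = 3 each). Esam, an endothelial adhesion molecule, fell by 0.84 in PN and 0.85 in PCN. The PN call was lost without PN replicate 2 or 3 or WT replicate 1 or 2, with edgeR adjusted p between 0.064 and 0.084, and the PCN call without PCN replicate 1 or 3 or WT replicate 1 or 2, between 0.062 and 0.076. The part of such cells in the levels of Il33 was not tested.

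Of 6 further receptors and brakes of the family outside the naming rule, Sigirr, which encodes an inhibitory receptor, was in the tables. It averaged 15.3 ± 1.2 CPM in PCN, 9.57 ± 0.33 CPM in PN and 33.6 ± 4.0 CPM in WT (SD, n = 3 each). It fell by 1.80 in PN and by 1.13 in PCN against WT, and rose by 0.67 in PCN against PN on the log2 scale.

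Downstream of the receptors, 23 of 33 signalling genes were in the tables. In PN against WT 4 rose and 8 fell of the 12 in the fit, among them Map3k8, a MAP kinase kinase kinase, by -1.91 ± 0.22 on the log2 scale, Tifa, a TRAF6 adaptor, by -1.41 ± 0.18, and Peli3, a ubiquitin ligase of the Pellino family, by 1.13 ± 0.27 (SE). In PCN against WT 8 rose and 5 fell of 13, with Peli3 at 1.19 ± 0.27, Tifa at -1.16 ± 0.16 and Tnfaip3, the NF-κB brake A20, at 0.97 ± 0.12 (SE). In PCN against PN 13 rose and 3 fell of 16, and 98.9% of all genes in that fit were called, 51.0% as higher and 47.9% as lower. The shares called higher and lower were 48.0% and 51.2% in PN against WT, and 47.3% and 51.3% in PCN against WT. Tnfaip3 rose by 1.19 ± 0.10, Nfkbie, an inhibitor of NF-κB, by 1.11 ± 0.24 and Map3k8 by 1.07 ± 0.22 (SE). The NF-κB subunit genes Nfkb1, Nfkb2, Rela and Relb, picked out after their values were seen, were all among those higher in PCN against both WT and PN, of which Nfkb1 against WT was lost in 5 of 6 fits with a library left out, the exception being WT replicate 3.

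Genes that process or release the family's cytokines were in the tables for 22 of 37. In PN against WT 5 rose and 12 fell of 17 in the fit, and in PCN against WT 8 rose and 10 fell of 18. Without PCN replicate 1, 5 rose and 10 fell in PCN. Of all genes in the fit, 48.0% were called higher and 51.2% lower in PN against WT. In PCN against WT these shares were 47.3% and 51.3%. P2rx7, the ATP-gated channel that triggers IL-1 release, rose by 2.37 ± 0.15 in PN (SE). Gsdmc2, a gasdermin whose reads may be shared with its close copies, fell by 2.35 in PN and by 3.78 in PCN on the log2 scale. Naip1, a sensor gene of the inflammasome with several close copies, had 1 count in PCN, 3 in PN and 52 in WT. Its ratio was 20.4 times lower in PN (exact 95% interval 6.61 to 102) and 65.3 times lower in PCN (11.2 to 2630). Without PN replicate 1, which held all 3 counts, it was at least 13.9-fold lower in PN, and without PCN replicate 3 at least 14.6-fold lower in PCN.

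Casp4, the mouse caspase 11 gene, had 9.11 ± 0.64 CPM in PCN, 0.434 ± 0.068 CPM in PN and 0.357 ± 0.44 CPM in WT (SD, n = 3 each). It rose by 4.65 ± 0.43 against WT and by 4.37 ± 0.24 against PN on the log2 scale (SE). WT replicate 1 held most of the WT counts, and without it PCN was 90.7 times higher (exact 95% interval 30.9 to 441). In PCN against PN 10 processing genes rose and 3 fell of 13, with Gsdmc rising by 1.84 ± 0.20 and Gsdmc2 falling by 1.43. Of all genes in that fit, 51.0% were called higher and 47.9% lower.

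Genes that epithelial cells induce on IL-1 or IL-36 signalling were in the tables for 20 of 26. In PN against WT 4 rose and 3 fell of 7 in the fit, and in PCN against WT 14 rose and 2 fell of 16. The PN count depended on which low-count genes entered the fit: 8 rose and 3 fell of 11 with no low-count filter or with DESeq2, 7 rose and 2 fell of 10 without WT replicate 1 or 2, and 7 rose and 3 fell of 10 without WT replicate 3. In PCN against PN 15 rose and 1 fell of 16. Of all genes in the fit, 48.0% were called higher in PN against WT, 47.3% in PCN against WT and 51.0% in PCN against PN. The list was drawn up with earlier results of these data known, so nothing is read from its counts. The neutrophil chemokine Cxcl1 averaged 27.3 ± 0.25 CPM in PCN, 13.9 ± 1.0 CPM in PN and 1.47 ± 0.92 CPM in WT (SD, n = 3 each), and rose by 4.21 in PCN and 3.24 in PN on the log2 scale. Without WT replicate 3 it was 4.85 in PCN and 3.88 in PN. Cxcl3 rose by 3.18 ± 0.56 in PN (SE), and without WT replicate 3 it was 20.4 times higher there (exact 95% interval 6.81 to 101). Defb14, a β-defensin, fell by 2.97 in PN.

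Several response genes were close to 0 in WT. Csf3, the granulocyte growth factor gene, had 311 counts in PCN, 32 in PN and 0 in WT, at least 82.5-fold higher in PCN than in WT, a bound that was 54.7-fold to 84-fold with a library left out. Ccl20, a chemokine for dendritic and T cells, had 204 counts in PCN, 36 in PN and 3 in WT, a PCN ratio of 54.1 (exact 95% interval 18.3 to 265). Leaving out WT replicate 2 raised that ratio to 109, and leaving out WT replicate 1 lowered it to 36. Lcn2, an iron-binding defence protein, had 240 counts in PCN, 35 in PN and 3 in WT, a PCN ratio of 63.7 (exact 95% interval 21.5 to 311). All 3 WT counts were in replicate 3, and without it Lcn2 was at least 42.2-fold higher. Against PN, Tnf rose by 4.48 ± 0.38, Csf3 by 3.18 ± 0.30 (3.94 without PN replicate 3) and Cxcl2 by 2.94 ± 0.37 in PCN (SE). Such genes also respond to many other signals, and the part of the family's own cytokines in their levels was not tested.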

How the data were processed

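RNA counts of 9 libraries came from 3 deposited tables that hold only genes with the authors' adjusted p-value under 0.05. Raw counts per gene stand as the authors deposited them, and the values show that the deposited normalized signal is that count over a size factor of the library. FPKM was made by the authors from counts, gene length and library total, per the file headers and values. Per the file headers, log2 fold changes compare the authors' normalized group means. Per the submitters' processing notes, CASAVA, DESeq and GRCm38 (mm10) were used. An aligner, read counter, strand setting or annotation is not given in the sources used here, so reads shared by close copies or antisense genes cannot be told apart.

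Library totals, size factors and the number of genes adjusted over were recovered from the tables, and CPM was scaled with those totals. Each pair was fitted with edgeR 4.0.16 (quasi-likelihood F test, filterByExpr; R 4.3.3), with Benjamini-Hochberg adjustment over the recovered number of genes and a threshold of 0.05. TMM over all genes was not possible because the tables hold called genes. Errors are the SE of the fit or the SD of 3 libraries. Intervals and floors (3 counts per group) cover counting error only. The scripts were tested on simulated data. Alternatives were recovered totals alone, TMM over listed genes, no filter, DESeq2 1.42.0, a replicate block and leaving out each library.

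The members and all 10 gene lists were chosen with earlier results of these data known. Every member was named, up to 3 genes per list and comparison with the largest called change, and the 5 genes nearest to Il33, of which 1 is not reported here. Sequences are RefSeq windows on GRCm38.p6.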

Additional observations from a re-analysis of the deposited data

How the results depend on the processing

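The number of genes called in each comparison stayed within 1.5 times of the reported one under every alternative run. The fits hold only genes the authors had already called in these libraries, and 98.6% to 99.3% were called in the main fits. A stable count is therefore no independent check. Of the members' fold changes, 149 values with a library left out and 124 under the other alternatives moved by less than the spread between replicates (SD of log2(CPM + 0.5), combined over both groups), 1 of each kind moved by more, and no listed value reversed. With each library left out in turn, Il33 ranged over -5.36 to -5.15 in PN against WT, -6.57 to -6.40 in PCN against WT and -1.36 to -1.13 in PCN against PN. The replicate numbers showed no pairing that held across all 3 groups. In PN and WT same-numbered libraries correlated at 0.09 to 0.21, above the -0.23 to 0.05 of differently numbered ones. In PCN and WT they correlated at -0.26 to -0.10, where other numbers gave -0.10 to 0.25. In PCN and PN they correlated at -0.13 to -0.12, where other numbers gave 0.05 to 0.09. With the replicate block 6277 genes were called in PN against WT (Il33 at -5.28), 6075 in PCN against WT (Il33 at -6.50) and 3345 in PCN against PN (Il33 at -1.22). The block also lost the call of Nfkb1 in PCN against WT (edgeR adjusted p = 0.066) and left 3 in place of 5 epithelial markers lower in PCN against PN. Of the 5 genes nearest to Il33, 4 stayed with log2(CPM + 1), 3 with FPKM in place of CPM and 0 with Pearson correlation as the measure. TMM put Il1rn at -0.28 in PCN against PN, and leaving out PN replicate 1 put Il1f8 at -3.87 in PN against WT. Depth limits Il1f8 and Il1a in PN, with 13 and 25 counts over the group, and Il18bp in WT, with 16.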

Other observations

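Beyond the family, 8 of 19 genes of the type 2 axis that IL-33 feeds were in the tables. Alox15, a lipoxygenase of eicosanoid synthesis induced by type 2 cytokines, averaged 8.87 ± 0.81 CPM in PCN, 3.92 ± 0.63 CPM in PN and 899 ± 28 CPM in WT (SD, n = 3 each). It fell by 7.82 in PN against WT and by 6.65 in PCN against WT, and rose by 1.17 in PCN against PN on the log2 scale. The receptor chain gene Il4ra fell by 1.14 in PN against WT, and Il13ra1 fell by 0.95 there. Tslp, a further epithelial alarm cytokine, averaged 5.03 ± 0.48 CPM in PCN, 2.87 ± 0.14 CPM in PN and 1.83 ± 0.68 CPM in WT (SD, n = 3 each), and rose by 1.46 in PCN against WT and by 0.81 in PCN against PN. Il17rb, the IL-25 receptor chain gene, rose by 2.47 ± 0.48 in PCN against WT and by 2.27 ± 0.39 in PCN against PN (SE). In all, 2 rose and 4 fell of 6 in PN against WT, 3 rose and 3 fell of 6 in PCN against WT, and 5 rose and 1 fell of 6 in PCN against PN. Of all genes in the fit, 48.0% were called higher and 51.2% lower in PN against WT. These shares were 47.3% and 51.3% in PCN against WT, and 51.0% and 47.9% in PCN against PN. The part of Il33 in the levels of these genes was not tested.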
